A study of Mus with 6 samples.

Results

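Some mouse genes exist as several neighbouring copies, and 3 such families are described here: Dynlt1, Plac9 and Tmem254. The 9 copies Dynlt1a, Dynlt1b, Dynlt1c, Dynlt1f, Plac9a, Plac9b, Tmem254a, Tmem254b and Tmem254c were named because copies at these loci had shown large, even differences between Ccl28 knockout (KO) and wild-type (WT) libraries. Of these 9, 6 have values among the 20893 genes of the expression table (Dynlt1a, Dynlt1b, Dynlt1c, Dynlt1f, Plac9a and Tmem254a). Plac9b, Tmem254b and Tmem254c were not analysed here. Since the KO against WT values chose the copies, those values are given as a description and without a test.

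The data are RNA sequencing of mouse cardiac microvascular endothelial cells, sorted on beads for CD31 and against CD45, from hearts of WT and Ccl28-KO mice whose left coronary artery had been ligated. All 6 libraries, 3 WT and 3 KO with replicate numbers 2, 3 and 4 in each group, come from operated hearts, so no library without ligation enters any comparison. The labels give no strain, age, sex or time after ligation, and no label ties a replicate to an animal of its own, so the spread behind each p-value may be technical. The genotype field of KO 3 and KO 4 names Ccl29 and Ccl30, and their titles, which name Ccl28, were followed. Ccl28, the targeted chemokine gene, was counted 16, 11 and 24 times in WT 2, WT 3 and WT 4 and was at 0 in all of KO 2, KO 3 and KO 4.

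Dynlt1 encodes a Tctex-type light chain of cytoplasmic dynein, the motor complex that carries cargo along microtubules toward the cell centre. The light chain binds the intermediate chains of the motor and links it to some of its cargoes. In the mouse the gene lies in the t complex on chromosome 17, a region long studied because of variants that are passed on by males in excess. Plac9 (placenta specific 9) encodes a small protein with a predicted signal peptide, and Tmem254 a small predicted membrane protein. The functions of both are little known.

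The 4 Dynlt1 copies lie within 349.6 kb of chromosome 17 (GRCm38, the assembly also called mm10). In RefSeq, Dynlt1a spans chr17:6306344-6317520, Dynlt1b chr17:6429530-6440500, Dynlt1c chr17:6601779-6607891 and Dynlt1f chr17:6646606-6655965. All are annotated as protein coding, under gene IDs 100310872, 21648, 100040563 and 100040531. Their starts are 123.2 kb, 172.2 kb and 44.83 kb apart. Dynlt1a overlaps the gene of the membrane protein Tmem181a by 1971 bases and Dynlt1b overlaps the transcribed pseudogene Tmem181b-ps by 1499 bases. The library kit keeps the strand of the RNA, but whether reads were counted by strand is not given in the sources used here, so reads of overlapping genes may not be fully separated.

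Plac9 and Tmem254 share a locus of 318.6 kb on chromosome 14. Plac9a (gene ID 211623) spans chr14:25888403-25902893 and Tmem254a (gene ID 66039) chr14:25923298-25927672. The same gene order then recurs. Plac9a is followed after 139.3 kb by Gm9780, which RefSeq also lists under the name Plac9, and after a further 139.6 kb by Plac9b (chr14:26167316-26182351). Tmem254a is followed after 140.5 kb by Tmem254c (chr14:26063751-26067425) and after a further 139.6 kb by Tmem254b (chr14:26203366-26207025). The homeobox genes Cphx1, Cphx2 and Cphx3 and the double homeobox genes Duxbl1, Duxbl2 and Duxbl3 lie among and, for Cphx3 and Duxbl3, beyond them, and repeat at 139.8 kb and then 139.6 kb. All 4 gene sets thus recur at nearly the same distance. How alike the copies are in sequence was not measured. Copies that are alike can share reads, and how reads that fit several copies were counted is not given in the sources used here. The split of a family's reads over its copies is therefore uncertain.

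Levels are FPKM, fragment counts divided by transcript length and library size. A single length stands for each gene, while RefSeq lists several transcripts for Dynlt1a, Dynlt1b, Dynlt1f and Tmem254a. Levels of copies of different length can therefore be compared only roughly. Reads per copy and the transcript length behind each FPKM value were recovered from the deposited values, and the libraries held 36004457 to 40500067 reads assigned to genes. That length differed widely between the copies, from 451 nt for Plac9a and 771 nt for Dynlt1b, through 1023 nt for Dynlt1c, 1164 nt for Dynlt1f and 2375 nt for Tmem254a, to 4945 nt for Dynlt1a. The median over all tested genes was 3429 nt.

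In WT, Plac9a was the most abundant copy, at 77 ± 12.9 FPKM (SD, n = 3), above 92.5% of the 10806 tested genes, those reaching 1 FPKM in 3 or more libraries. Tmem254a followed at 21.4 ± 4.16 FPKM and lay above 73.1% of them. Among the Dynlt1 copies, Dynlt1b (6.86 ± 0.334 FPKM) and Dynlt1f (5.97 ± 1.37) had ranges that overlapped in WT, so their order is within the spread. Dynlt1c was lower, at 2.05 ± 0.273 FPKM, and Dynlt1a was lowest, at 0.867 ± 0.345 FPKM. By reads, Dynlt1a, with 96 to 230 in a WT library, lay above Dynlt1c, with 73 to 93. In KO the order of the upper copies changed. Dynlt1b stood first at 30.6 ± 1.12 FPKM, Plac9a had 13.6 ± 3.94, Dynlt1f 8.27 ± 1.59 and Tmem254a 6.29 ± 0.132, and the ranges of Plac9a and Dynlt1f touched at 10.08 and 10.07 FPKM.

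**Figure D1:**
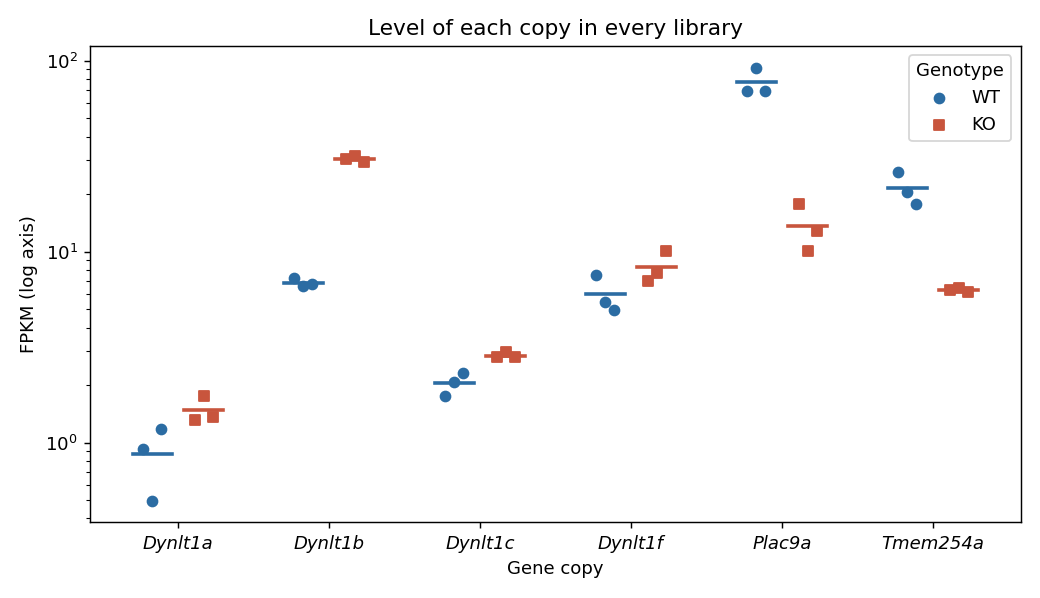
FPKM (log axis) of the 6 copies with values, in 3 WT libraries (circles) and 3 KO libraries (squares), with a line at each group's mean. The groups overlap for Dynlt1f only, and Dynlt1b, Plac9a and Tmem254a show the widest gaps.

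Of the 6 copies, 3 had every KO library above every WT library, against 22.8% of the 10806 tested genes, and 2 had every KO library below every WT library, against 31.9%. Without regard to direction, the groups did not overlap for 54.7% of tested genes. As the copies were chosen on this contrast, nothing is read from that count. All 6 passed the expression filter. Dynlt1a did so in 4 libraries, the 3 KO libraries and WT 4.

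Dynlt1b was 7.24, 6.6 and 6.74 FPKM in WT 2, WT 3 and WT 4, and 30.5, 31.7 and 29.5 FPKM in KO 2, KO 3 and KO 4. Behind these values were 226, 199 and 205 reads in WT and 888, 910 and 819 reads in KO. The KO mean was 4.46-fold the WT mean, the groups were far apart, and within each group the highest library was 1.1-fold (WT) and 1.08-fold (KO) the lowest. The coefficient of variation was 4.88% in WT and 3.67% in KO, close to the 6.9% and 3.39% that counting error alone gives at that number of reads. On the log2(FPKM + 1) scale, where differences of weakly expressed genes come out too small, the difference of 2.01 (SE 0.0744) was the third highest of all tested genes. The authors' deposited table gives Dynlt1b a fold change of 4.65.

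The other Dynlt1 copies differed much less. Dynlt1a had 0.924, 0.496 and 1.18 FPKM in WT 2, WT 3 and WT 4 and 1.32, 1.75 and 1.35 FPKM in KO 2, KO 3 and KO 4, from 96 to 230 and from 241 to 322 reads. Its KO mean was 1.7-fold the WT mean and its groups did not overlap, but WT 3 was low and the WT libraries spread 2.38-fold. Dynlt1c had 1.76, 2.07 and 2.31 FPKM in WT 2, WT 3 and WT 4 and 2.79, 2.97 and 2.8 FPKM in KO 2, KO 3 and KO 4. That is 1.39-fold, with 73 to 93 reads in a WT library and 103 to 113 in a KO library, the fewest of the 6 copies in KO. Dynlt1f had 7.53, 5.43 and 4.97 FPKM in WT 2, WT 3 and WT 4 and 7.05, 7.69 and 10.07 FPKM in KO 2, KO 3 and KO 4. Its groups overlapped, since WT 2 lay above KO 2, and the KO mean was 1.38-fold the WT mean.

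Summed over its 4 copies, Dynlt1 was 17.45, 14.6 and 15.2 FPKM in WT 2, WT 3 and WT 4 and 41.6, 44.2 and 43.7 FPKM in KO 2, KO 3 and KO 4, a ratio of means of 2.74. Dynlt1b, the copy with the shortest transcript length of the 4, made up 86.5% of the added FPKM. That share was not computed from reads. Without Dynlt1b the sum was 8.89 ± 1.17 FPKM in WT and 12.6 ± 1.54 in KO, 1.42-fold, and the groups still did not overlap. Reads, which weigh the long Dynlt1a more than FPKM does, gave a lower ratio. The 4 copies together had 839, 625 and 756 reads in WT 2, WT 3 and WT 4 and 1552, 1678 and 1585 reads in KO 2, KO 3 and KO 4, and after scaling to library size the KO mean was 2.33-fold the WT mean.

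The make-up of the family differed with it. Dynlt1b held 26.9%, 31.8% and 27.1% of the family's reads in WT 2, WT 3 and WT 4, with 95% Wilson intervals of 24.05% to 30.04%, 28.3% to 35.6% and 24.1% to 30.4%. In KO 2, KO 3 and KO 4 it held 57.2%, 54.2% and 51.7%, with intervals of 54.7% to 59.7%, 51.8% to 56.6% and 49.2% to 54.1%. These intervals cover counting error only. As the copies were chosen on this contrast, the shares are a description. Dynlt1f held 37.3% ± 6.37 of the family's reads in WT and 22.2% ± 3.88 in KO, and Dynlt1c 11.4% ± 2.41 and 6.73% ± 0.23, without overlap of the groups. Their own mean levels were higher in KO. The share of Dynlt1a was 22.6% ± 7.55 in WT and 16.8% ± 2.14 in KO, with overlapping groups. On the FPKM scale Dynlt1b went from 43.7% ± 1.97 to 70.8% ± 3.0 of the sum, and Dynlt1a, whose transcript length is by far the longest, held only 5.48% ± 2.19 and 3.41% ± 0.484.

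**Figure D2:**
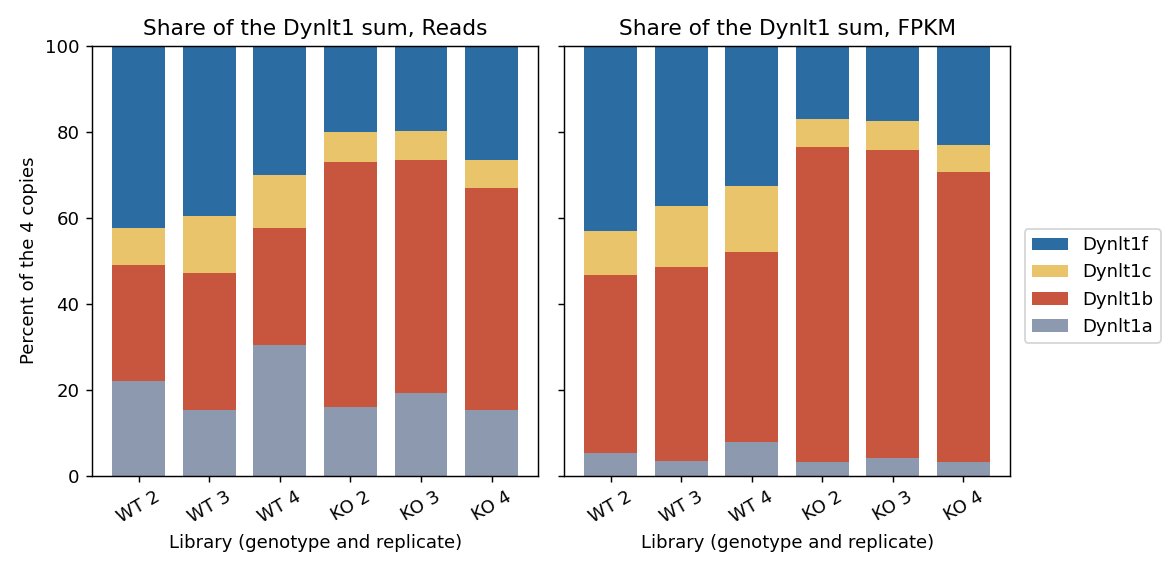
Share of each Dynlt1 copy in the sum of the 4 copies, in percent, for each library, by reads (left) and by FPKM (right). Dynlt1b holds 26.9% to 31.8% of the reads in the WT libraries and 51.7% to 57.2% in the KO libraries.

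Plac9a went the other way. It was 69.5, 91.9 and 69.6 FPKM in WT 2, WT 3 and WT 4, from 1270, 1621 and 1238 reads, and 17.8, 10.1 and 12.75 FPKM in KO 2, KO 3 and KO 4, from 304, 169 and 207 reads. The WT mean was 5.68-fold the KO mean, and on the log2(FPKM + 1) scale its difference of -2.44 (SE 0.177) was the lowest of all 10806 tested genes. That rank is not one of fold change, as the scale shrinks differences of weakly expressed genes. Ifi208, at 2.86 FPKM in WT, was 155.4-fold lower in KO but had a difference of -1.92 on this scale. The lowest WT library was far above the highest KO library. The KO libraries themselves spread 1.77-fold, with a coefficient of variation of 29.1% against 6.64% from counting error, so Plac9a was less even in KO than Dynlt1b. Plac9a is the only copy of its family with values, so the Plac9 sum equals this copy.

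Tmem254a was 26, 20.6 and 17.8 FPKM in WT 2, WT 3 and WT 4, from 2497, 1911 and 1665 reads, and 6.25, 6.43 and 6.17 FPKM in KO 2, KO 3 and KO 4, from 561, 568 and 528 reads. WT was 3.41-fold KO, with no overlap. Its difference of -1.61 (SE 0.121) on the log2(FPKM + 1) scale was among the 7 lowest of the tested genes, a rank that again is not one of fold change. Here the KO libraries were the even ones, with a coefficient of variation of 2.1% against 19.4% in WT. The authors' deposited table gives ratios of KO to WT of 0.306 for Tmem254a and 0.183 for Plac9a. Both genes were below every WT library in every KO library, but the WT libraries ranked differently: WT 3 was the highest WT library for Plac9a and WT 2 for Tmem254a.

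The deposited values hold a trend with transcript length, short transcripts being relatively higher in KO, so each copy was set beside tested genes of like length (the shorter at least 0.8 times the longer). For the 400 genes near Dynlt1b the median log2 difference was 0.47, with 5th and 95th percentiles of 0.00 and 0.71, and Dynlt1b, at 2.01, lay above them. For the 678 genes near Dynlt1c the median was 0.39 and for the 881 near Dynlt1f it was 0.35. Dynlt1c (0.34) and Dynlt1f (0.41) lay near those medians. The genes of like length were not matched for level, and the scale shrinks the difference of the weakly expressed Dynlt1c. Its log2 difference was 0.47 with 0.1 in place of 1 added to FPKM, and 0.49 with limma-voom on reads. Genes as long as Dynlt1a, 2375 of them, had a median of -0.19 and a 95th percentile of 0.22, below the 0.42 of Dynlt1a. Plac9a and Tmem254a lay under the 5th percentiles of their length, which were -0.24 among 150 genes and -0.29 among 2140 genes. The copies were chosen on this contrast, so their places among genes of like length are a description and no test. Dynlt1a, moreover, reached the expression filter in every KO library but in WT 4 alone among the WT libraries. With the length trend removed from each library, the differences were 1.56 for Dynlt1b, 0.62 for Dynlt1a, 0.09 for Dynlt1f, -0.02 for Dynlt1c, -3.01 for Plac9a and -1.69 for Tmem254a. The median over all tested genes was -0.03 before and 0.01 after that step.

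**Figure D3:**
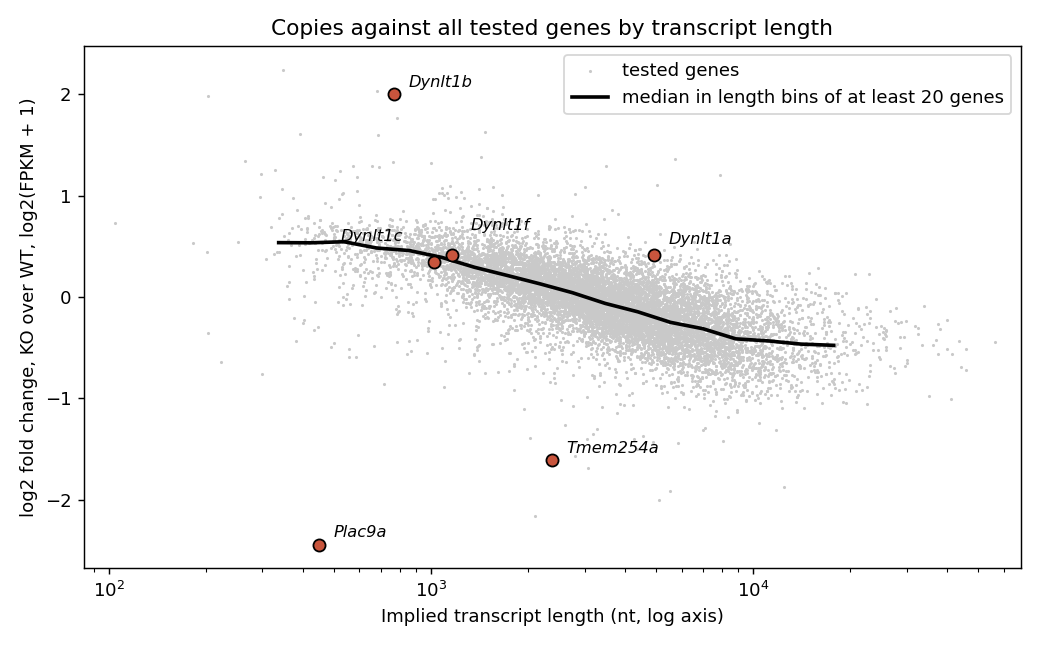
Difference in log2(FPKM + 1), KO minus WT, against implied transcript length (nt, log axis) for the 10806 tested genes (grey points), with the median in length bins (black line) and the 6 copies (red). Dynlt1c and Dynlt1f lie near the line, Dynlt1a and Dynlt1b above it, and Plac9a and Tmem254a far below it.

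The genes around the copies were not chosen for their values and could be tested. Within the loci and 200 kb on either side RefSeq lists 22 other genes on chromosome 17 and 23 on chromosome 14. Of each, 6 have values and 3 passed the expression filter. In limma over all tested genes, where 44.2% passed a Benjamini-Hochberg adjusted p of 0.05 (18.3% higher and 25.8% lower in KO), 2 of these 6 neighbours fell. Both lie outside the copies: Tulp4, a tubby-family gene, on the Dynlt1 side, went from 4.01 ± 0.326 to 1.97 ± 0.464 FPKM (log2 difference -0.77, limma adjusted p = 0.00135), and Zcchc24, a zinc finger gene, from 23.2 ± 0.507 to 15.4 ± 0.718 FPKM (log2 difference -0.57, limma adjusted p = 0.000564). Tulp4, with the length trend removed, had an adjusted p of 0.0659, and among genes with FPKM of at least 5 the count was 1, as Tulp4 lay under that filter.

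The other 4 tested neighbours did not pass. Tmem181a, which overlaps Dynlt1a, was 5.82 ± 0.318 FPKM in WT and 4.75 ± 0.484 in KO (log2 difference -0.25, limma adjusted p = 0.0566), opposite in sign to Dynlt1a. The adjusted p of Tmem181a was 0.037 with limma-voom on reads. With the length trend removed its log2 difference was -0.03 (limma adjusted p = 0.866), and with quantile normalization -0.13 (limma adjusted p = 0.266). Ezr, which encodes the membrane and cytoskeleton linker ezrin beyond Dynlt1f, had 11.8 ± 0.907 and 11.3 ± 0.658 FPKM (log2 difference -0.06, limma adjusted p = 0.614), and its log2 difference was 0.01 with quantile normalization (adjusted p = 0.887). Anxa11, an annexin gene that ends just before Plac9a, had 61.8 ± 0.794 and 59.6 ± 3.46 FPKM (log2 difference -0.05, limma adjusted p = 0.564). Ppif, the gene of the mitochondrial cyclophilin D, had 5.05 ± 0.386 and 4.24 ± 0.919 FPKM (log2 difference -0.22, limma adjusted p = 0.196; 0.0436 with the length trend removed). Anxa11 had 5134 to 6104 reads in a library. On chromosome 14, Zcchc24 was thus lower in KO along with Plac9a and Tmem254a, while Anxa11, which lies between Zcchc24 and Plac9a, had overlapping groups.

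Between Tmem254a and Gm9780 lies Duxbl1, a double homeobox gene, which was named after its values were seen. It had 26, 21 and 31 reads in WT 2, WT 3 and WT 4 and 0, 1 and 4 reads in KO 2, KO 3 and KO 4, or 0.139 ± 0.0265 and 0.00973 ± 0.0123 FPKM. The groups did not overlap. It lay under the expression filter; in limma without that filter its log2 difference was -0.17 (adjusted p = 0.0103 over 20893 genes), and 3 neighbours then passed. Its direction was that of Plac9a and Tmem254a, at a very low level.

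**Figure D4:**
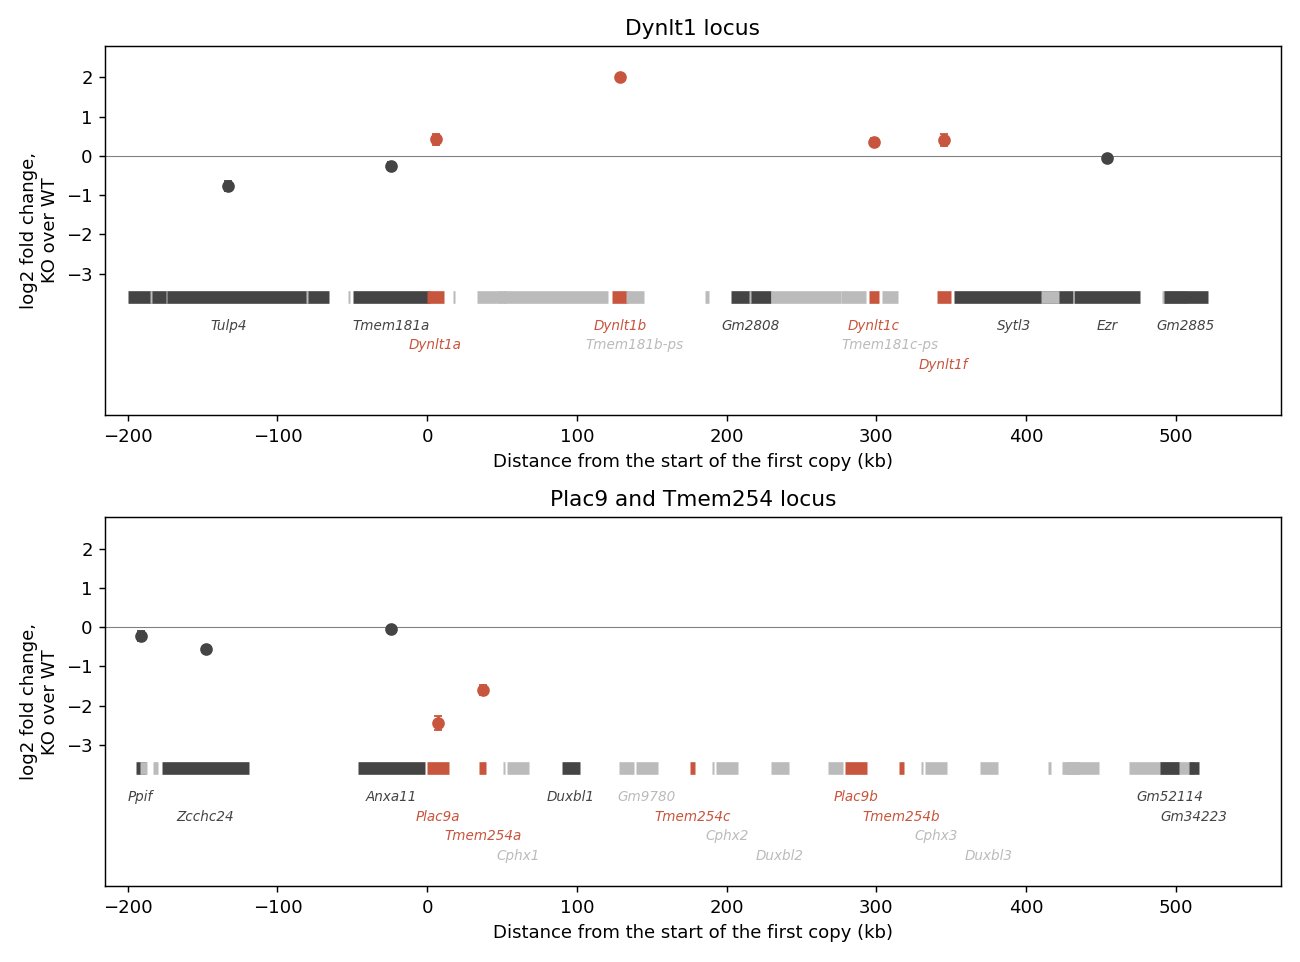
Map of both loci in kb from the start of the first copy. Boxes show genes (red for the 9 copies, dark grey for other genes with values, light grey for genes not analysed here) and points the log2 difference KO over WT with its SE for genes past the expression filter. Dynlt1b stands out on chromosome 17 at 2.01 and Plac9a and Tmem254a on chromosome 14 at -2.44 and -1.61, while Ezr and Anxa11 lie near 0.

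The partners of the Dynlt1 light chain in the motor were examined as a list. Of 37 named genes of dynein and dynactin 35 had values and 28 were tested. In limma 8 rose and 6 fell, beside 18.3% higher and 25.8% lower of all tested genes, with a median log2 difference of -0.01 against -0.03 over all tested genes. Without WT 3, WT 4 or KO 4, and with the replicate number as a block, 5 rose. With the length trend removed, where 19.3% of all tested genes passed (10.1% higher, 9.2% lower), 5 rose and 4 fell. Their log2 differences lay between -0.81 and 0.41. Dynlt1b, at 2.01, lay beyond them, but that copy was chosen on this contrast, so nothing is read from the gap.

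Among the light chain genes outside Dynlt1, 2 of 4 rose and 1 fell, beside 18.3% higher and 25.8% lower of all tested genes. Dynlrb1, of the roadblock type, rose from 121.5 ± 4.98 to 159.3 ± 4.53 FPKM (limma adjusted p = 0.00171), but with the length trend removed its log2 difference went from 0.39 to 0.02 (adjusted p = 0.854). Dynll1 rose from 85.3 ± 5.37 to 106.8 ± 4.38 FPKM (limma adjusted p = 0.00612; 0.0609 with the length trend removed), and its close relative Dynll2 fell from 40.9 ± 1.89 to 33.5 ± 2.17 (limma adjusted p = 0.0138; 0.0645 without WT 4). Dynlt3, the other Tctex-type chain measured, had 41.5 ± 2.85 and 43 ± 2.63 FPKM, with overlapping groups. Its level in WT was above the 15.8 FPKM of all Dynlt1 copies together, and in KO the Dynlt1 sum of 43.2 ± 1.34 FPKM lay within the range of Dynlt3.

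Of the 4 tested core genes of cytoplasmic dynein 1, 2 fell, beside 25.8% of all tested genes. The heavy chain gene Dync1h1, which encodes the motor itself, fell from 39.8 ± 2.11 to 24.2 ± 1.75 FPKM (limma adjusted p = 0.000463; 0.0368 with the length trend removed), and Dync1li2, a light intermediate chain gene, from 23 ± 1.38 to 18 ± 0.74 (limma adjusted p = 0.0058; 0.795 with the length trend removed). Dync1li1 had 29.4 ± 3.35 and 27.9 ± 2.02 FPKM (limma adjusted p = 0.592). Dync1i2, which encodes the intermediate chain that light chains bind, had 44.6 ± 3.44 and 43 ± 1.74 FPKM and did not pass.

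Dynactin, the cofactor that joins dynein to cargo, had 12 tested genes, of which 6 rose in limma and 6 did not pass. Over all tested genes 18.3% rose. Dctn3 rose from 35 ± 0.942 to 46.8 ± 1.8 FPKM (limma adjusted p = 0.00135), Dctn2 from 70.6 ± 2.25 to 86.5 ± 3.17 (limma adjusted p = 0.00643) and Dctn6 from 15.9 ± 0.873 to 20.5 ± 1.37 (limma adjusted p = 0.00694). With the length trend removed 5 rose: Dctn2, Dctn3, Dctn6 and Actr10, which had passed before, and Dctn1, whose log2 difference turned from -0.18 (adjusted p = 0.0708) to 0.19 (adjusted p = 0.0466). Actr1a and Capzb no longer passed at that step (limma adjusted p = 0.0794 and 0.249), where 10.1% of all tested genes rose. Of 6 tested regulators and adaptors 3 fell in limma and 3 did not pass, beside 25.8% lower of all tested genes. Hook3 went from 4.25 ± 0.466 to 1.98 ± 0.0707 FPKM (limma adjusted p = 0.000529), Pafah1b1, the Lis1 gene, from 28.9 ± 1.74 to 19.8 ± 1.55 (limma adjusted p = 0.00114) and Bicd2 from 21.2 ± 1.54 to 14.3 ± 2.04 (limma adjusted p = 0.00281; 0.0914 with the length trend removed). The 2 tested genes of dynein 2, the motor of cilia, Dync2li1 and Wdr34, did not pass (limma adjusted p = 0.499 and 0.849).

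**Figure D5:**
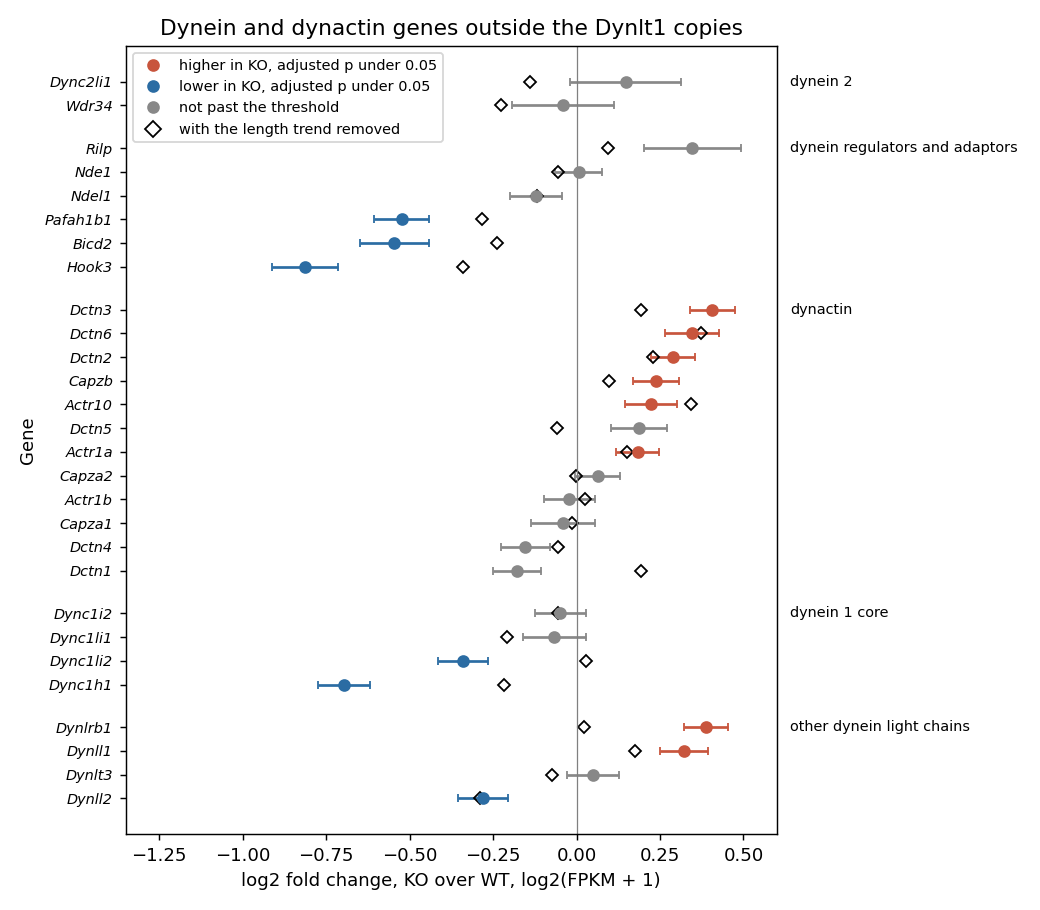
Log2 difference KO over WT (circles, bars give the SE) of the 28 tested dynein and dynactin genes by list, and the same with the length trend removed (open diamonds). Coloured circles passed an adjusted p of 0.05. All differences lie between -0.81 and 0.41, and those of Dynlrb1 and Dync1li2 move to near 0 with the length trend removed.

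Over the 6 libraries the profiles most like each family's sum on the log2(FPKM + 1) scale were those of Ube2e2, Clpp and U2af1 for Dynlt1 (Pearson r = 0.9985, 0.9982 and 0.998), of Ttc28, Stim2 and Dipk2b for Plac9 (0.9985, 0.9985 and 0.9975) and of Trim56, Ifi208 and Sorbs2 for Tmem254 (0.9956, 0.9954 and 0.9941). With 2 groups of 3 libraries, any gene with an even difference scores high: of 10399 genes ranked, 593, 560 and 635 had r above 0.95. Likeness of profile did not mean likeness of size. Clpp, a mitochondrial protease gene, was 1.48-fold higher in KO, and Stim2, a calcium sensor gene, 1.19-fold lower. Ifi208, of the interferon-inducible PYHIN family, had 746, 598 and 535 reads in WT 2, WT 3 and WT 4 and 1, 0 and 10 reads in KO 2, KO 3 and KO 4. Trim56, a ubiquitin ligase gene, was 2.5-fold lower in KO.

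Cell type markers were compared as sums of FPKM beside these values. The 9 endothelial markers were abundant in all libraries, with sums of 4001 to 4081 in the WT and 3749 to 4071 in the KO libraries, and 2 rose and 3 fell in limma. Over all tested genes 18.3% rose and 25.8% fell. Of 7 mural markers 6 fell (348.8 to 459.7 in WT, 236.7 to 368.6 in KO) and all 5 tested of 6 fibroblast markers fell (22.7 to 25.2 in WT, 10.8 to 13.1 in KO). Of the 7 tested of 8 leukocyte markers 6 rose (87.7 to 195.2 in WT, 218.9 to 320.9 in KO). Of 5 cardiomyocyte markers 1 rose and 1 fell, and no marker was at 0 in all libraries. After removal of the length trend, 0 endothelial markers rose and 3 fell, 5 mural and 4 fibroblast markers fell, 4 leukocyte markers rose and 1 cardiomyocyte marker rose. At that step 10.1% of all tested genes rose and 9.2% fell. Most mural and all 5 tested fibroblast markers moved in the direction of Plac9a and Tmem254a. Most leukocyte markers moved in that of Dynlt1b. Acta2, a mural marker, had 144.6 ± 22.8 FPKM in WT and 145.3 ± 30.5 in KO (limma adjusted p = 0.996). Ptprc, the gene of CD45, did not pass either (limma adjusted p = 0.895). Lyz2, the leukocyte marker with the highest FPKM, had 98 ± 46.6 in WT and 190.2 ± 43.5 in KO, with overlapping groups. The groups of Cd68 overlapped as well. The part of these markers in the differences was not tested. In such bulk samples, fewer cells of a type and less RNA per cell cannot be told apart.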

How the data were processed

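Per the file headers, the authors deposited FPKM per gene and library. A second table holds the authors' group means of normalized signal, the ratio of KO to WT, its log2 value, and that comparison's q-value and p-value, per the file headers. Per the submitters' processing notes, tools with no role given were GATK 4.0.11.0, DESeq2 1.22.1, Cufflinks, StringTie 1.3.4d, HISAT2 2.1.0, featureCounts 1.6.2 and fastp 0.19.3, on the mm10 build.

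FPKM and group means together gave whole reads and transcript lengths for 17686 genes (whole within 0.05 reads for 100.0% of values that were not above 1000). The other 3207 genes had no recovered reads. Genes reaching 1 FPKM in 3 or more libraries entered limma 3.58.1 (R 4.3.3, trend, genotype only, two-sided) on log2(FPKM + 1), with an adjusted p of 0.05 as the threshold. The length trend was removed from each library by loess (span 0.5) on log2 length. The fits and the read recovery were tested on simulated data. Positions are from RefSeq on GRCm38.p6.

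The copies, lists and tests were chosen with earlier results of these data known. The text names the copies, every tested neighbour, up to 3 dynein genes per list by smallest p and the 3 profiles per family with the highest r, predicted genes left out. Dynlt3, Dync1i2, Duxbl1, Acta2, Ptprc, Lyz2, Cd68 and the genes whose call or sign turned were named outside that rule, after their values were seen. Alternatives were other pseudocounts, filters and scalings, the length trend, a replicate block and leaving out each library; limma-voom and summed reads were added after seeing the data. Tables and plots were made in Python 3.11.15 (scipy 1.17.1, pandas 2.3.3, matplotlib 3.10.9, numpy 2.4.6). No sequence is shown, as none was used here.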

Additional observations from a re-analysis of the deposited data

How the results depend on the processing

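Under the alternatives run for them, Dynlt1b stayed between 1.56 and 2.15, Dynlt1a between 0.27 and 0.84, Dynlt1f between 0.09 and 0.57, Plac9a between -3.01 and -2.26 and Tmem254a between -1.75 and -1.47 on the log2 scale, while Dynlt1c reached 0.49 and turned to -0.02 with the length trend removed. The log2 ratio of summed FPKM was 1.46 for Dynlt1 (1.05 with the length trend removed, 1.221 from summed reads scaled to library size), -2.51 for Plac9 (-3.09 with the length trend removed) and -1.77 for Tmem254. With the length trend removed 2083 of all tested genes passed in place of 4772 (1089 higher, 994 lower; 1982 and 2790 before), 9 of the dynein and dynactin genes in place of 14, and Zcchc24 and Ppif were the 2 neighbours that passed. Among genes with FPKM of at least 5, 1 neighbour passed, and 3 passed without an expression filter or with limma-voom on reads. With the length trend removed, signs turned for Dync1li2 (0.027), Dync2li1 (-0.14), Dctn1 (from -0.178 to 0.194, then passing), Dctn5, Dynlt3, Nde1, Actr1b and Capza2, and they turned for Ezr (0.015) and Wdr34 (0.061) with quantile normalization. With single libraries left out, Dync1li1 ranged from -0.154 to 0.006, turning without WT replicate 2, Dync2li1 from -0.075 to 0.277, turning without KO replicate 4, and Wdr34 from -0.154 to 0.124, turning without WT replicate 2 (0.124) or KO replicate 4 (0.027). Of all these genes Dync1li2 alone had passed before. The causes were not tested. Leaving out single libraries, 3392 to 4380 genes, 10 to 15 dynein and dynactin genes and 2 neighbours passed. With the replicate number as a block 3749 genes passed, 11 of them dynein and dynactin genes and 2 neighbours. Deviations of libraries with the same number correlated at -0.195, -0.349 and -0.222, so no positive pairing was seen. Deviations from a group's mean cancel out over its libraries, which ties these values together. They therefore cannot decide whether libraries with the same number were handled together. Copies with few reads, Dynlt1c and Dynlt1a in WT, are the least precise.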
